A study of Mus musculus with 4 samples.

Results

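The genes that encode the proteasome, molecular chaperones and other heat shock and protein folding factors were taken from both deposited tables by gene symbol, with a pattern for their families. The pattern found 57 of the 3117 genes listed, among them 8 proteasome subunits, 5 proteasome activators or assembly chaperones, 37 chaperones and cochaperones, 5 FK506-binding prolyl isomerases and Vcp. The remaining one, Psmc3ip, was caught by its symbol only, since it encodes a recombination cofactor and not a proteasome part. The table of transcription start sites (TSS) holds all 57, among 3112 genes, and the table of transcript ends (TES) holds 54, among 3030 genes. Hsf1, Hsf2, Hspa5, Hsph1, Tcp1 and every prefoldin gene, which the pattern would also take, had no listed row.

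The knockout cells were B16F10 mouse melanoma cells labelled as lacking Carm1 (Carm1 KO), and the controls were B16F10 cells labelled wild type; the parental line is an established cell line. Carm1 is an arginine methyltransferase that modifies histones and transcription and splicing factors. How the knockout was made, and whether it is a single clone, is not given in the sources used here. RNA held by RNA polymerase II (Pol II) was captured by mammalian native elongating transcript sequencing (mNET-seq), with an antibody against Pol II phosphorylated on serine 2 of its tail (Ser2P) or against the tail itself, which gave 1 library per antibody and kind of cell, 4 in all. Per the labels' protocols each library pools 3 sets of cells. Of 10 melanocyte markers 6 were listed in the tables, against 0 of 6 for fibroblasts, 1 of 5 for leukocytes and 0 of 2 for keratinocytes. The value for each gene is a ratio of the Ser2P signal to another signal, whose divisor the file headers do not state. Depth is unknown because no counts are given, and a single library for each condition leaves nothing to test against, so each difference below describes these libraries alone. Whether a difference lies in the Ser2P signal or in its divisor cannot be told apart. A gene is called higher or lower where its ratio differs by at least 1.5-fold.

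The proteasome is a barrel-shaped protease whose core particle cuts proteins and whose regulatory particle, with a ring of ATPase subunits, recognises and unfolds proteins tagged with ubiquitin. Chaperones of the HSP70 and HSP90 families, with J proteins and other partners, and the ring-shaped chaperonins fold new proteins and rescue damaged ones. Heat shock factor 1 induces many of the cytosolic chaperone genes, the unfolded protein response those of the endoplasmic reticulum (ER), and Nfe2l1 those of the proteasome. Ser2P accumulates on Pol II towards the ends of genes, while Pol II near a start site usually carries little of it.

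Promoter windows from RefSeq (GRCm38.p6), 250 bases before to 50 after an annotated start, were found for 49 of the 57 genes, in 61 windows. They are shown for genes that hold the response elements of these pathways and that stand at different places in the comparison below. Both strands were searched. A heat shock element of 3 units, GAA, TTC and GAA (or TTC, GAA and TTC) with any 2 bases between neighbouring units, was found in 6.56% of these windows, against 0.603% of all RefSeq windows of the same length and 0.756% of the windows of genes in the tables. The 4 windows behind this share hold fewer separate sites, since Hspd1 and Hspe1 share one stretch and 2 overlapping Dnajb6 windows hold the same match. An ER stress response element, CCAAT and CCACG (or CGTGG and ATTGG) with any 9 bases between them, was found in 4.92%, against 0.119% of all windows and 0.23% of those of listed genes. The antioxidant response element core TGACNNNGC, or GCNNNGTCA, occurred in 16.4% of the members' windows, 12.4% of all windows and 17% of those of listed genes. Capitals mark the matches. Hspe1 and Hspd1, the lid and the barrel of the mitochondrial chaperonin, start head to head 216 bases apart, so the first window covers the promoter of both. It runs over chr1:55087898-55088197 on the plus strand and holds a match on each strand that overlap. The Dnajb6 window is chr5:29735648-29735947 on the plus strand, the Hsp90b1 window is chr10:86705395-86705694 on the minus strand with a match on each strand, and the Canx window is chr11:50325624-50325923 on the minus strand. A match is a run of letters and not evidence of a factor there.
Hspe1: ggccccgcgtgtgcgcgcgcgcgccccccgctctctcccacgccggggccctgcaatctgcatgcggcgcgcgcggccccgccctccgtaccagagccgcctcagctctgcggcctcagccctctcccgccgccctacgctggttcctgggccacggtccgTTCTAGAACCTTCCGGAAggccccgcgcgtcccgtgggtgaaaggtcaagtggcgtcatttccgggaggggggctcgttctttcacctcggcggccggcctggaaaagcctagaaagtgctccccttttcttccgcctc
Dnajb6: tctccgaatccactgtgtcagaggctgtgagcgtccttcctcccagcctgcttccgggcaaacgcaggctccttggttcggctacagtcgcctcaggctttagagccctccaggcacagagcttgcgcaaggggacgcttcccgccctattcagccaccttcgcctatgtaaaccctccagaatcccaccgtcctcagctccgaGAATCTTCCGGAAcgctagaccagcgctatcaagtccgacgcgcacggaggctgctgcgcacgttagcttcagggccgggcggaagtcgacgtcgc
Hsp90b1: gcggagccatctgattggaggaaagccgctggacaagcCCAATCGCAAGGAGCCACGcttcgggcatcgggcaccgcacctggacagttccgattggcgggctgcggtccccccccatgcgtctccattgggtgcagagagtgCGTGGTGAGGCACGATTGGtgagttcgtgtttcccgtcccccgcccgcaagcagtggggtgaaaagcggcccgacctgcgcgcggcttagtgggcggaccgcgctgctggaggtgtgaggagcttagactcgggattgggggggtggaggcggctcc
Canx: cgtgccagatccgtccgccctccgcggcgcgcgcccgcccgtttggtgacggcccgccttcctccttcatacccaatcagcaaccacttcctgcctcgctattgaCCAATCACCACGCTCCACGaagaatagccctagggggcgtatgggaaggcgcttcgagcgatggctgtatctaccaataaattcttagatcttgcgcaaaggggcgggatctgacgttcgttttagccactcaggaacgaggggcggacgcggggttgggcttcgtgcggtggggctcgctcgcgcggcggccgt

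In both kinds of cell the ratio of these genes was low at the TSS and high at the TES. At the TSS the median of all 57 genes was 0.134 in Carm1 KO cells and 0.0781 in control cells, beside 0.166 and 0.0809 over all listed genes. At the TES the median of the 54 genes was 2.91 in Carm1 KO cells and 1.69 in control cells, beside 2.99 and 1.71 over all genes. Levels therefore lay close to those of the whole tables at both ends.

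**Figure D1:**
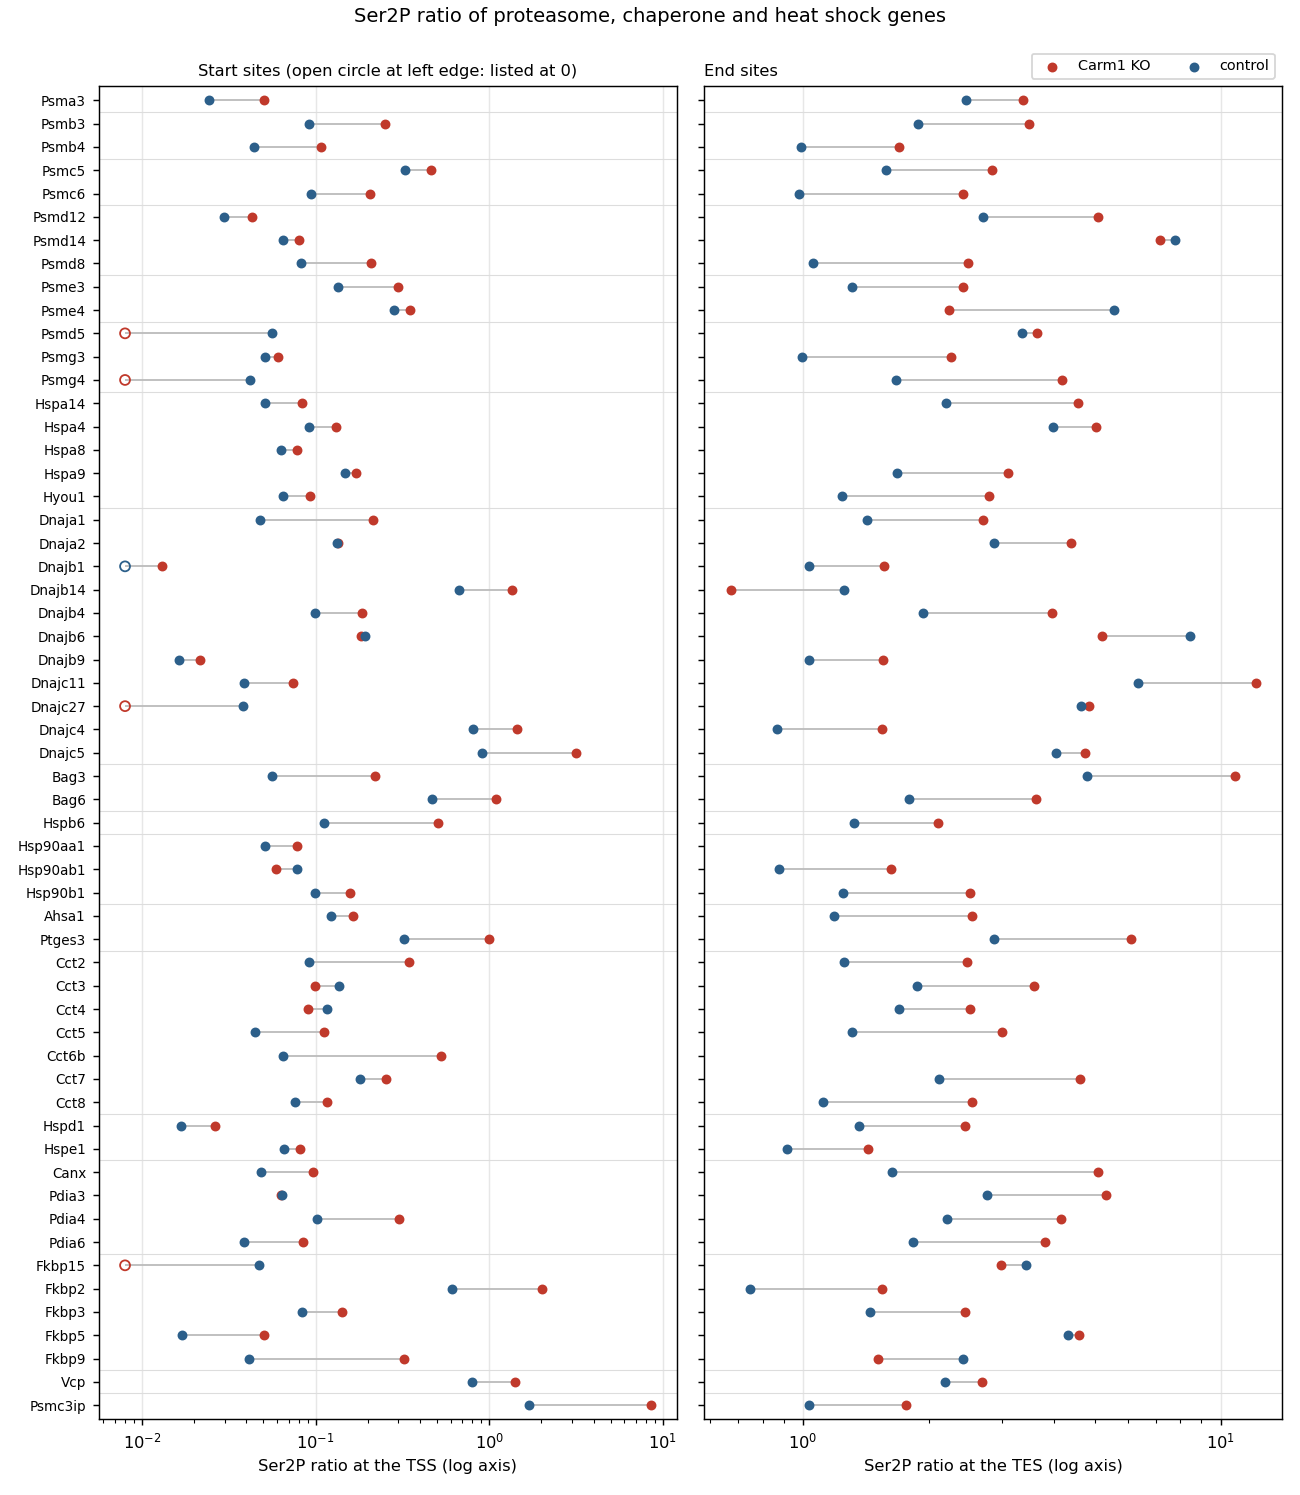
Ser2P ratio of each gene at the TSS (left) and TES (right) on log axes, in Carm1 KO (red) and control (blue) libraries, grouped by role from proteasome subunits at the top to Psmc3ip at the bottom. Open circles mark genes listed at 0, and a gene without points at the TES had no listed row; at the TES most red points lie to the right of the blue ones, and those of Psme4, Dnajb6, Dnajb14 and Fkbp9 lie clearly to the left.

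The first comparison asked how the Ser2P ratio at the start of these genes differed without Carm1. Of the 52 genes above 0 in both conditions, 33 (63.5%) were higher by 1.5-fold or more in Carm1 KO cells, against a background of 71.2% of all genes. Among these 52, 0 were lower, against 5.60%, but genes at 0 are left out of this count. With a pseudocount of 0.0206 and genes at 0 kept, 4 of 57 members (7.02%) were lower, against 8.19% of all genes. By 2-fold or more, 23 (44.2%) were higher, against 56.7% of all genes, and 0 lower, against 2.90%, and 47 of the 52 had any positive change, against 85.8%. Their median log2 change was 0.84, below the 1.17 of all genes, and their quartiles were 0.41 and 1.37, against 0.46 and 1.89. The scale between the libraries is not given, so the split was also taken relative to the median change over the whole table. Then 8 members (15.4%) were higher, against 28.6% of all genes, and 19 (36.5%) were lower, against 28.8%.

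At the TES, 40 of 54 genes (74.1%) were higher by 1.5-fold or more in Carm1 KO cells, against 66.7% of all genes, and 4 (7.41%) were lower, against 7.13%. By 2-fold or more, 18 (33.3%) were higher, against 37.9% of all genes, and 1, Psme4, was lower, against 4.01%, and 48 had any positive change, against 84.3%. The median log2 change was 0.89, against 0.85 over all genes, with quartiles at 0.57 and 1.05, against 0.35 and 1.17. Relative to the whole table's median, 1 member (1.85%), Canx, was higher, against 11.6% of all genes, and 10 (18.5%) were lower, against 22.0%. Between the quartiles, the changes of these genes thus spanned less at the TES than at the TSS. Of the 49 genes above 0 in all 4 values, 25 (51.0%) were higher at both ends, against 49.2% of all genes, and 13 (26.5%) were higher at the TES only, against 17.9%.

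**Figure D2:**
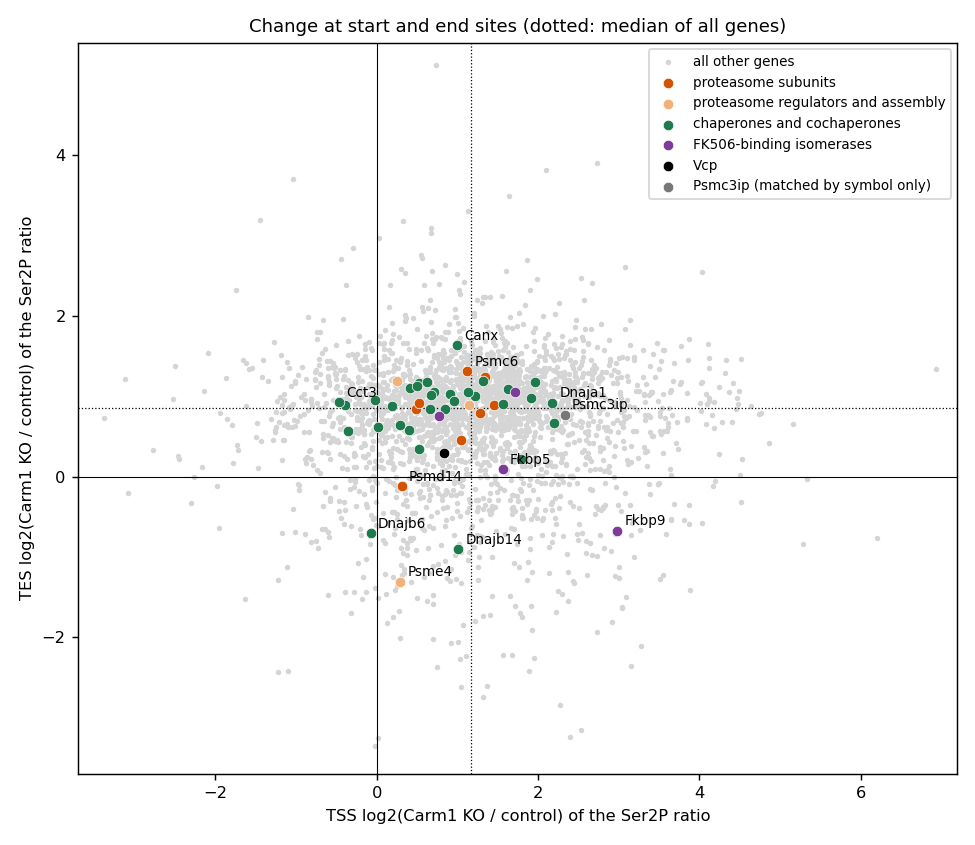
Log2 change (Carm1 KO over control) of the Ser2P ratio at the TSS (horizontal) and the TES (vertical) for each gene above 0 in all 4 values, with members coloured by class and all other genes in grey. Dotted lines are the medians of all genes, 1.17 and 0.85; most members form a flat band near the TES median while they spread from -0.47 to 2.98 along the TSS axis.

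Proteasome subunits and chaperones were set against each other. At the TSS the 8 subunits had a median log2 change of 1.08, 0.42 above the 0.67 of 35 chaperones. At least 1.5-fold higher were 5 of the subunits (62.5%) and 21 of the chaperones (60%), against 71.2% of all genes. The mean log2 changes of subunits and chaperones differed by 0.10, with the subunits higher. At the TES the medians were 0.87 for the 8 subunits and 0.92 for 34 chaperones, 0.06 apart with the chaperones higher. The means there differed by 0.00564 with the subunits higher. Called higher were 6 subunits (75%) and 28 chaperones (82.4%), against 66.7% of all genes. The range of the subunits lay inside that of the chaperones at each end. The median TSS ratio of subunits was 0.156 in Carm1 KO cells and 0.0738 in control cells, and that of chaperones was 0.131 in Carm1 KO cells and 0.0781 in control cells. At the TES subunits had a median of 3.10 in Carm1 KO cells and 1.73 in control cells, and chaperones 3.34 in Carm1 KO cells and 1.69 in control cells.

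Among core particle genes, which form the barrel, Psma3 encodes a subunit of the outer ring and Psmb3 and Psmb4 encode subunits of the inner ring. The TSS ratio of Psmb3 was 0.250 in Carm1 KO cells and 0.0912 in control cells (log2 change 1.45), the largest among the subunits. Psmb4 had 0.107 in Carm1 KO cells and 0.0442 in control cells (1.28), and Psma3 had 0.0506 in Carm1 KO cells and 0.0245 in control cells (1.05). All 3 were thus more than 1.5-fold higher at the start. At the TES the ratio of Psmb3 was 3.49 in Carm1 KO cells and 1.89 in control cells (0.89) and that of Psmb4 was 1.70 and 0.986 (0.79). Psma3 stayed below the threshold there, with 3.36 in Carm1 KO cells and 2.46 in control cells (0.45).

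In the regulatory particle, Psmc5 and Psmc6 encode ATPases of the unfolding ring, and Psmd8, Psmd12 and the deubiquitinating enzyme Psmd14 belong to the lid. Psmc6 had the largest TES change of any subunit, with a ratio of 2.42 in Carm1 KO cells and 0.976 in control cells (log2 change 1.31), and was also higher at the TSS (1.12). Psmc5 was called at the TES only (0.85), with a TSS ratio of 0.463 in Carm1 KO cells and 0.329 in control cells (0.49). Psmc5 starts within 1 kb of Ftsj3, which is transcribed the other way, and the Carm1 KO TSS ratio of 0.463 was the same for both genes. That value was shared by 3 genes in all, and the control TSS ratios differed, at 0.329 for Psmc5 and 0.144 for Ftsj3. Psmd8 was higher at both ends, by 1.34 at the TSS and 1.23 at the TES, and the end of Catsperg1 on the same strand lies 620 bases before its start. Psmd12 had a log2 change of 0.53 at the TSS and 0.91 at the TES. Psmd14 was the only subunit with a lower TES ratio in Carm1 KO cells, 7.18 against 7.79 in control cells (-0.12), and its TSS change was 0.31.

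At the TES the regulators of the proteasome spanned -1.31 to 1.32 in log2 change, and its subunits -0.12 to 1.31. Psme3 and Psme4 encode activators that cap the core particle in place of the regulatory particle. Psme3 was higher at both ends, with log2 changes of 1.14 at the TSS and 0.89 at the TES. Psme4 had a TES ratio of 2.24 in Carm1 KO cells and 5.55 in control cells, a log2 change of -1.31 that was the lowest of all members. The Carm1 KO value of Psme4 was shared by 12 genes and its control value by 2, so both are coarse. Its TSS ratio was 0.348 in Carm1 KO cells and 0.284 in control cells (0.29). Psmg3 and Psmg4, which help assemble the core ring, were higher at the TES, by 1.19 and 1.32. At the TSS, Psmg3 had a log2 change of 0.26 and Psmg4 was listed at 0 in Carm1 KO cells and at 0.0418 in control cells. Psmd5, a chaperone of the regulatory particle that is not part of the finished proteasome, was likewise listed at 0 in Carm1 KO cells and at 0.0561 in control cells at the TSS, and its TES ratios were 3.64 in Carm1 KO cells and 3.34 in control cells (0.12).

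Among chaperone families with 5 or more listed genes, the HSP70 genes had the lowest median log2 change at the TSS. It was 0.52, beside 0.62 for the cytosolic chaperonin TRiC and 0.91 for J proteins. Of the smaller families, the mitochondrial chaperonin pair had a lower median, 0.47. HSP90 genes had a median of 0.61 but a lower mean, 0.29 against 0.45. All 5 HSP70 genes lay below the median of all genes at the TSS. Only Hspa14, a ribosome-associated member, was past the threshold (0.71), so 20% were higher, against 71.2% of all genes. Hspa8, the constitutive cytosolic HSP70, had a TSS ratio of 0.0782 in Carm1 KO cells and 0.0635 in control cells (0.30), and the mitochondrial Hspa9 had 0.170 in Carm1 KO cells and 0.149 in control cells (0.19). Hspa4, an exchange factor of the HSP110 branch, had a log2 change of 0.52. At the TES 3 of 4 (75%) were higher, against 66.7% of all genes. They were Hyou1, an ER exchange factor (1.17), Hspa14 (1.05) and Hspa9 (0.88), whereas Hspa4 had 0.35. Hspa8 and Hsp90aa1 had no TES row, so their ends were not analysed here.

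J proteins, which deliver clients to HSP70 and start its ATP hydrolysis, were the largest family, with 11 genes. At the TSS 6 of 9 (66.7%) were at least 1.5-fold higher and 0 lower, against 71.2% and 5.60% of all genes. The median log2 change of these 9 was 0.91, against 1.17. Dnaja1 led with a ratio of 0.215 in Carm1 KO cells and 0.0477 in control cells (2.18), followed by Dnajc5, a cysteine string protein of secretory vesicles, with 3.16 and 0.913 (1.79). The lowest were Dnaja2 (0.01) and Dnajb6, which keeps aggregation-prone proteins soluble (-0.08). Dnajb1, the main heat-inducible J protein, was listed at 0.0131 in Carm1 KO cells and at 0 in control cells at the TSS. Dnajc27 was the reverse, at 0 in Carm1 KO cells and at 0.0381 in control cells.

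At the TES 7 of 11 J protein genes (63.6%) were higher and 2 (18.2%) were lower, against 66.7% and 7.13% of all genes. The J protein median of 0.60 was below the 0.85 of all genes. Dnajb4 (1.03) and Dnajc11, of the mitochondrial inner membrane organising machinery (0.94), were highest. Dnajb6 had a TES ratio of 5.19 in Carm1 KO cells and 8.46 in control cells (-0.71), and Dnajb14, an ER membrane J protein, had 0.671 in Carm1 KO cells and 1.26 in control cells (-0.90). Dnajb14 was therefore higher at its start (1.01) and lower at its end. Its Carm1 KO TES value was shared by 9 genes, and the end of H2afz on the same strand lies 753 bases before its TSS. Dnajb9, an ER cochaperone, had a log2 change of 0.59 at the TES, just past the threshold.

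The 2 listed genes of the BAG family were higher at both ends, as were 49.2% of all genes. Bag3, a stress-induced factor of selective autophagy, had a TSS ratio of 0.219 in Carm1 KO cells and 0.0563 in control cells (log2 change 1.96) and a TES ratio of 10.8 in Carm1 KO cells and 4.78 in control cells (1.18). Bag6, which holds hydrophobic proteins for ER insertion or degradation, had a log2 change of 1.22 at the TSS and 1.01 at the TES. The small heat shock protein gene Hspb6 had a TSS ratio of 0.509 in Carm1 KO cells and 0.111 in control cells (2.20), with a TES change of 0.67.

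HSP90 genes were divided at the start and alike at the end. Hsp90ab1, the constitutive cytosolic form, had a TSS ratio of 0.0593 in Carm1 KO cells and 0.0781 in control cells (-0.40), which did not reach the threshold. It was among the 5 with a negative TSS change of the 52 members above 0 in both conditions. Its stress-inducible paralog Hsp90aa1 had 0.0786 in Carm1 KO cells and 0.0514 in control cells (0.61), and the ER form Hsp90b1 had 0.159 in Carm1 KO cells and 0.0999 in control cells (0.67). At the TES, Hsp90b1 (1.01) and Hsp90ab1 (0.89) were both higher. The cochaperone genes Ahsa1, an activator of the HSP90 ATPase, and Ptges3, which encodes p23, had TES changes of 1.10 and 1.09, and at the TSS 0.41 and 1.62.

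TRiC, the cytosolic chaperonin that folds actin and tubulin, is a ring of different subunits present in equal number. At the TES all 6 of its listed genes had positive log2 changes, from 0.57 at Cct4 and 0.93 at Cct3 to 1.18 at Cct8 and 1.19 at Cct5. Of these, 5 (83.3%) were called higher, against 66.7% of all genes, and the median of the 6 was 1.05. At the TSS the same ring's genes were further apart. The quartiles of all genes were also further apart there, at 0.46 and 1.89, against 0.35 and 1.17 at the TES. Cct2 had a ratio of 0.344 in Carm1 KO cells and 0.0914 in control cells (1.91) and Cct5 had 0.112 in Carm1 KO cells and 0.0447 in control cells (1.32). Cct3 had 0.0994 in Carm1 KO cells and 0.137 in control cells (-0.47), the lowest TSS change of the members above 0 in both conditions. Cct4 had 0.0909 in Carm1 KO cells and 0.117 in control cells (-0.36). Some of these values are coarse, since the Carm1 KO value of Cct5 was shared by 17 genes and its control value by 11. The Carm1 KO value of Cct3 was shared by 7 genes and the control value of Cct2 by 5. The largest TSS change of the members above 0 in both conditions, 3.03, was at Cct6b, a paralog known for its expression in testis. Its ratio was 0.527 in Carm1 KO cells, a value shared by 2 genes, and 0.0647 in control cells, shared by 3. Cct6b had no TES row, and its start lies within 1 kb of that of Zfp830, whose TSS ratio was 0.177 in Carm1 KO cells and 0.0363 in control cells.

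The mitochondrial chaperonin pair that shares the first promoter shown above had different levels at the start. Hspd1 had a TSS ratio of 0.0263 in Carm1 KO cells and 0.0167 in control cells (log2 change 0.65), while Hspe1 had 0.0809 in Carm1 KO cells and 0.0660 in control cells (0.29). At the TES both were higher, by 0.84 and 0.64. Dnajb6, with the other heat shock element shown, was near 0 at the TSS and lower at the TES, so the genes holding this element did not share a direction at their ends.

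The ER lectin chaperone and disulfide isomerase genes were all higher at the TES, 4 of 4, against 66.7% of all genes. Their median log2 change there was 1.00, against 0.85. Canx, a membrane lectin that retains immature glycoproteins, had the largest TES change of all members, with 5.07 in Carm1 KO cells and 1.64 in control cells (1.63), and its TSS change was 1.00. The disulfide isomerase genes Pdia6 (1.05), Pdia3 (0.95) and Pdia4 (0.90) followed at the TES. Pdia4 was also higher at the TSS, with 0.301 in Carm1 KO cells and 0.102 in control cells (1.56), whereas Pdia3 had 0.0631 in Carm1 KO cells and 0.0640 in control cells (-0.02). Canx, Pdia6 and Hsp90b1, the genes with an ER stress response element in their windows, were higher at both ends, as were 49.2% of all genes. A link to the element was not tested. Other members whose products reside in the ER differed in direction at the TES, since Hsp90b1, Hyou1, Dnajb9 and Fkbp2 were higher and Dnajb14 and Fkbp9 were lower.

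The FK506-binding proteins isomerise prolyl bonds. At the TSS all 4 compared genes were higher, against 71.2% of all genes, with a median log2 change of 1.64. At the TES 2 of 5 (40%) were higher and 1 (20%) was lower, against 66.7% and 7.13% of all genes, with a median of 0.09. Fkbp5, Fkbp9 and Fkbp15 are 118, 47.3 and 60.2 kb long. In the longest of the 3 length groups described below, 38.9% of all genes were higher at the TES, with a median of 0.30. Fkbp9, an ER member, had a TSS ratio of 0.325 in Carm1 KO cells and 0.0411 in control cells (2.98) and a TES ratio of 1.52 in Carm1 KO cells and 2.42 in control cells (-0.67). Fkbp5, an HSP90 partner that restrains steroid receptors, had a log2 change of 1.56 at the TSS and 0.09 at the TES. The control TSS value of Fkbp9 was shared by 5 genes and that of Fkbp5 by 3, so both are coarse. Fkbp2 was higher at both ends (1.71 and 1.05), as was Fkbp3 (0.77 and 0.76). Fkbp15 was listed at 0 in Carm1 KO cells and at 0.0472 in control cells at the TSS, and its TES ratios were 2.97 in Carm1 KO cells and 3.43 in control cells (-0.20). Fkbp9 and Dnajb14 were the 2 members (4.08%) higher at the start and lower at the end, against 4.58% of all genes.

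Vcp, the ATPase that pulls ubiquitinated proteins out of membranes and complexes, had one of the highest start-site ratios, 1.41 in Carm1 KO cells and 0.791 in control cells (log2 change 0.84). Its TES ratio was 2.68 in Carm1 KO cells and 2.19 in control cells (0.29), below the threshold, and its Carm1 KO value was shared by 24 genes.

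The TES change varied with gene length. In GENCODE M21 (GRCm38) all 57 genes were matched, and the matched genes of the tables were split by length into 3 groups of equal size. In the shortest group, up to 10157 bp, 15 of 15 members were higher at the TES, against 82.8% of all genes of that length. In the middle group, up to 30146 bp, 22 of 27 members (81.5%) were higher, against 78.4%. In the longest group 3 of 12 members (25%) were higher and 4 (33.3%) were lower, against 38.9% higher and 18.0% lower of all genes of that length, and their median log2 change was -0.01, against 0.30. All 6 members with a negative TES change were in this group. The 4 called lower were between 47.3 and 109 kb long. All are annotated on the plus strand, Psme4 at chr11:30771726-30880361, Dnajb6 at chr5:29735688-29818134, Dnajb14 at chr3:137867675-137916557 and Fkbp9 at chr6:56832059-56879358. Canx (31.7 kb), Dnajb4 (31.8 kb) and Dnajc11 (48.4 kb) were the 3 long genes that were higher. At the TSS 8 of 12 members in the longest group (66.7%) were higher, with a median of 0.98, against 70.2% and 1.22 for all genes of that length. Relative to the median of all genes of similar length, in 10 length groups, 2 members (3.70%) were higher at the TES, against 13.2% of all genes, and 7 (13.0%) were lower, against 16.3%.

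**Figure D3:**
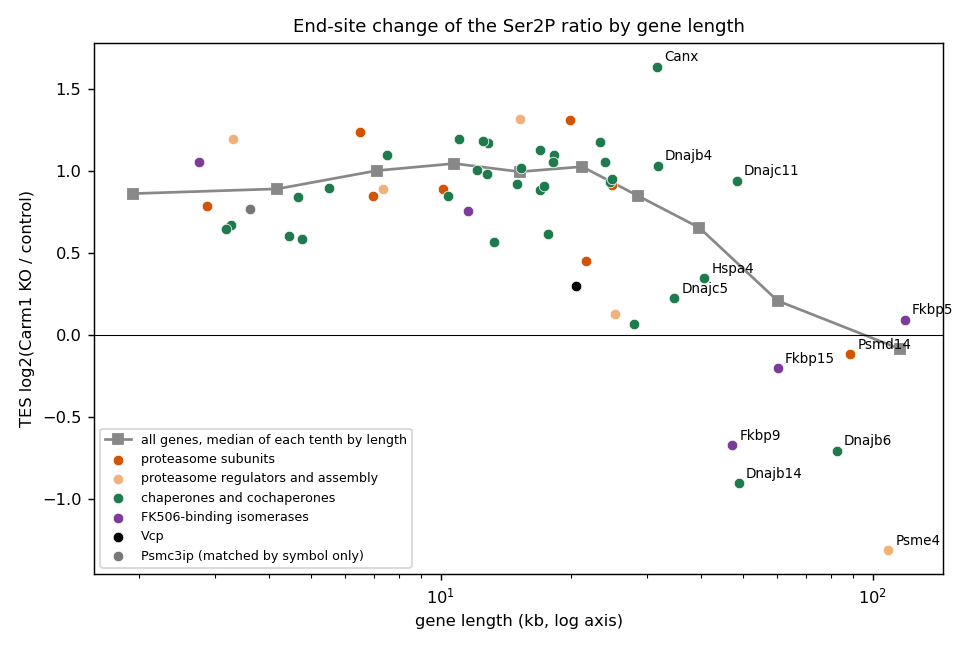
Log2 change of the TES Ser2P ratio (Carm1 KO over control) against gene length in kb on a log axis, for each member (points coloured by class) and as the median of all genes in each of 10 length groups (grey squares). The grey squares reach 1.04 among shorter genes and -0.09 in the longest group, and Psme4, Dnajb14, Dnajb6 and Fkbp9 lie below it.

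The level of the TES ratio also followed length. Among members the median in the longest group was 4.66 in Carm1 KO cells and 4.0 in control cells, and in the shortest group 1.77 in Carm1 KO cells and 1.04 in control cells. All genes showed 4.99 in Carm1 KO cells and 3.92 in control cells for the longest group, and 1.95 and 0.998 for the shortest.

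The highest start-site ratios stood apart from the rest of these genes. Psmc3ip, a cofactor of meiotic recombination at chr11:101091823-101095436 on the minus strand, had a TSS ratio of 8.49 in Carm1 KO cells and 1.69 in control cells (log2 change 2.33), which exceeded its own TES ratio in both conditions. The end of Retreg3 on the same strand lies 886 bases before its start. Across all genes that had the end of a neighbour, on either strand, no more than 1 kb from the TSS, the median TSS ratio was 1.18 in Carm1 KO cells and 0.473 in control cells, against 0.152 and 0.0768 without one. Of the members 5 (8.77%) had such a neighbour, against 9.38% of all genes, and they were Psmc3ip, Dnajc4, Dnajb14, Dnajb6 and Psmd8. Dnajc4 had a TSS ratio of 1.45 in Carm1 KO cells and 0.810 in control cells, with the end of Nudt22 446 bases before its start. Of the 10 members with the highest control TSS ratios 3 had a neighbouring end within 1 kb, against 8.77% of all members. These were Psmc3ip, Dnajc4 and Dnajb14, and Dnajc5, Vcp, Fkbp2 and Bag6 were among those without one. The part of neighbours in these values was not tested.

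**Figure D4:**
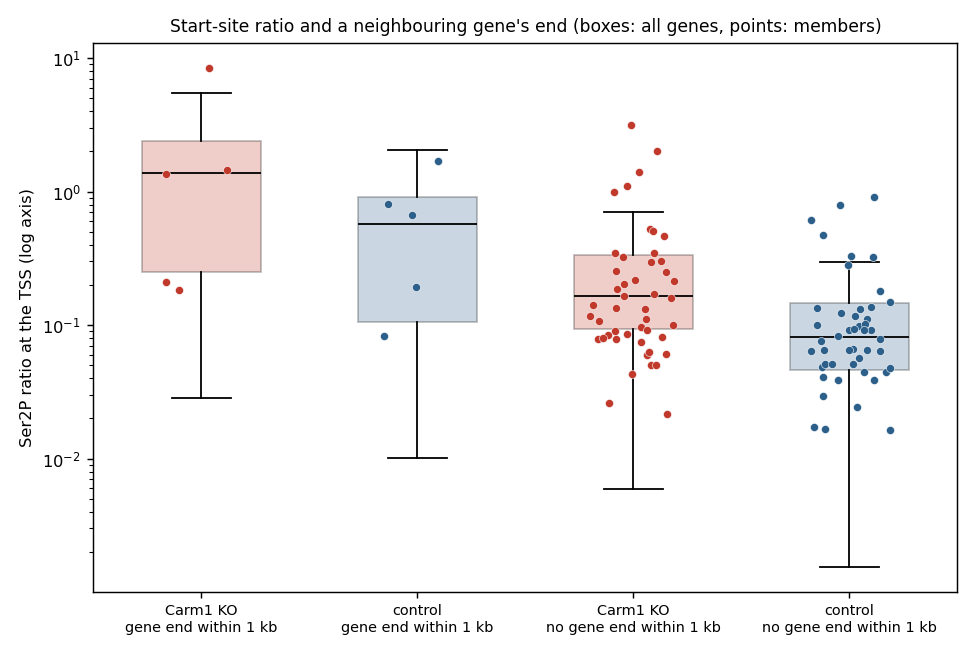
Ser2P ratio at the TSS on a log axis in Carm1 KO (red) and control (blue) cells, for genes with and without the end of another gene within 1 kb of the TSS. Boxes show the median, quartiles and whiskers of 1.5 times the interquartile range over all genes above 0 in both conditions. Points are members, and values of other genes beyond the whiskers are not drawn. The median is higher with a neighbouring end in both conditions, though the highest control ratio was 2.06 with one and 2.75 without.

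A divergent start within 1 kb was annotated for 19 members (33.3%), against 36.5% of all genes. The TSS change had a median of 0.64 over the 16 compared members with such a partner and 1.01 over the 36 without, against 1.08 and 1.22 over all genes. Whether counting used the strand is not given in the sources used here, so reads of such partners may not have been told apart. Genes such as Hspa8, Hsp90ab1, Hspd1 and Hspe1 also have near-identical processed pseudogenes, and how reads with several matches were counted is not given in the sources used here.

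The rise of the ratio along a gene was described as the TES ratio over the TSS ratio. Over the 49 members above 0 in all 4 values its median was 18.1 in Carm1 KO cells and 19.2 in control cells, against 15.7 and 19.5 over all genes. The ratio was higher at the end than at the start in 46 members in Carm1 KO cells and in 48 in control cells. It was at least 1.5-fold steeper in Carm1 KO cells for 11 members (22.4%), against 19.8% of all genes, and flatter for 14 (28.6%), against 44.2%. The median log2 change was -0.09 over members and -0.40 over all genes. The sign for members turned over the 18 genes without values shared with another gene (0.19) and relative to the median of all genes (0.32). Among 32 chaperones 10 were steeper and 8 flatter, with a median ratio of 24.3 in Carm1 KO cells and 17.0 in control cells. Among the 8 proteasome subunits 0 were steeper and 1 was flatter, with 14.9 in Carm1 KO cells and 21.5 in control cells. Those medians were taken apart in each condition. Taken gene by gene, the median log2 change was 0.15 for chaperones and -0.27 for subunits, against -0.40 over all genes. Cct3 (log2 change 1.40) and Hsp90ab1 (1.29) had the largest increases, and Fkbp9 (-3.66) and Dnajb14 (-1.92) the largest decreases.

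Genes of the same pathways outside the pattern were taken from 5 lists, and 53 of 114 symbols were listed. Of 51 compared genes 36 (70.6%) were higher at the TSS, against 71.2% of all genes, and 5 (9.80%) were lower, against 5.60%, with a median log2 change of 1.34, against 1.17. At the TES 36 of 51 (70.6%) were higher, against 66.7%, and 1 (1.96%) was lower, against 7.13%, with a median of 0.92, against 0.85. The shares of higher genes thus lay near those of the whole tables, and the same all-gene shares apply to each list below. Proteasome cofactors and ubiquitin genes had 10 of 14 (71.4%) higher and 1 lower at the TSS, near the 71.2% of all genes, from the proteasome scaffold gene Ecpas (4.52) to the proteasome-bound thioredoxin gene Txnl1 (-1.54). At their ends 9 of 13 (69.2%) were higher, against 66.7%, from Zfand5 (1.51), an activator of the proteasome, to Akirin2 (-0.51), which brings proteasomes into the nucleus. Nfe2l1, the transcription factor of proteasome genes, was named after its values were seen and had log2 changes of -0.27 at the TSS and -0.03 at the TES.

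All 5 compared Vcp cofactor genes were higher at the TSS, where 71.2% of all genes were, with a median of 2.65, against 1.17 for all genes. Values ran from 1.01 at Ufd1 to 4.03 at Faf1, whose control ratio of 0.0286 was shared by 5 genes. Derl2 was left out because it was listed at 0 in Carm1 KO cells and at 0.129 in control cells. At the TES 4 of 6 (66.7%) were higher, the same share as of all genes. Faf1 had a TES change of -0.58 and Nsfl1c 1.56. Cytosolic folding partners had 5 of 8 (62.5%) higher and 1 lower at the TSS, from the tubulin cofactor gene Tbcc (2.21) to the heat shock factor regulator gene Ier5 (-0.95), and 7 of 8 (87.5%) higher at the TES, from Txndc9 (1.69) to Tbce (0.11). In the list of ER folding and unfolded protein response genes 12 of 18 (66.7%) were higher and 2 lower at the TSS. Values ran from the ubiquitin ligase gene Syvn1 (4.24), whose control ratio of 0.0174 was shared by 4 genes, to the stress sensor gene Eif2ak3 (-1.02). At the TES 11 of 18 (61.1%) were higher and 1 lower, from Ganab, a glucosidase gene (1.33), to Eif2ak3 (-0.69). Mitochondrial folding and protease genes had 4 of 6 (66.7%) higher and 1 lower at the TSS, between Trap1 (1.71) and Grpel1 (-0.75), and 5 of 6 (83.3%) higher at the TES, between Timm44 (1.32) and Trap1 (0.32).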

How the data were processed

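The data were mNET-seq libraries of B16F10 cells, 1 per antibody and condition, and 2 tables made by the authors, for TSS and TES. Their values are linear ratios that the authors deposited as Ser2 fractions, per the file headers. They exceed 1, so they were not treated as fractions, and no source used here gives the divisor, windows, scaling, strand setting or gene selection. Reads were processed with cutadapt 1.18 and TopHat2 2.1.1, with builds mm10 and GRCm38, per the submitters' processing notes. Columns were assigned to control and Carm1 KO by their names.

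Members, roles and lists were chosen with earlier results of these data known. Changes are log2(Carm1 KO / control) without a pseudocount, and genes at 0 in a condition were left out. A fold of 1.5 (0.58 on the log2 scale) was the threshold. With 1 library per group no test was run. Positions, lengths and neighbours came from GENCODE M21, which matched 3077 of 3117 symbols without regard to case. Named genes were central family members, the extremes of each role, members lower at an end, members at 0 and members that differed in direction between ends. The computation was checked on simulated shifts. Python 3.11.15, pandas 2.3.3 and numpy 2.4.6 were used.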

Additional observations from a re-analysis of the deposited data

How the results depend on the processing

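No replicate could be left out and no paired analysis was possible because each group has 1 library. For the counts, 8 alternatives were run. Subtracting the median of all genes gave 8 higher and 19 lower at the TSS (33 and 0 as reported) and 1 higher and 10 lower at the TES (40 and 4 as reported). Subtracting the median of the length group (10 groups) gave 8 higher and 21 lower at the TSS, and 2 higher and 7 lower at the TES. A 2-fold threshold gave 18 higher and 1 lower at the TES. With a pseudocount (0.0206 at the TSS and 0.661 at the TES) and genes at 0 kept, 4 were lower at the TSS (7.02%, against 8.19% of all genes). At the TES 2 were then lower (3.70%, against 5.54% of all genes). Higher were 29 of 57 at the TSS (50.9%, against 63.2% of all genes) and 30 of 54 at the TES (55.6%, against 53.1%). Without values shared with another gene, 16 of 23 were higher at the TSS and 2 of 41 lower at the TES, where fewer genes remained.

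The proteasome minus chaperone difference at the TSS, 0.42, was 0.10 with means, 0.28 with regulators and prolyl isomerases added, 0.27 with a pseudocount, 0.35 without genes of low level, 0.47 without shared values, 0.39 without close neighbours and 0.37 relative to the length group. It stayed positive in all 7, with 4 to 11 proteasome genes. At the TES, -0.0577 became 0.00564 with means, which turned the sign, and was -0.0181 with regulators and prolyl isomerases, -0.0503 with a pseudocount, -0.0801 without genes of low level, -0.0594 without shared values, -0.0623 without close neighbours and -0.0353 relative to the length group. The cause was not tested. The median gradient change of -0.09 was 0.32 relative to that of all genes, 0.19 over the 18 genes without shared values, both of the other sign, and -0.0711 with a pseudocount. Depth is unknown. At the TSS 24 of 53 members above 0 in Carm1 KO cells and 18 of 56 in control cells had a value shared with another gene, and at the TES 8 of 54 in each, so single small ratios are coarse.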
